A study of Solanum tuberosum with 8 samples.

Results

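Each bulk of potato tubers in this series was sequenced as 2 replicate libraries, A and B, and in both bulks of high tuber starch content (TSC) the replicates stood far apart. The libraries H1-A and H2-B were set here against H1-B and H2-A, which puts 1 replicate of each high-TSC bulk on each side, so that 4 of the 8 libraries of the series are described. The sides were selected on measured expression: the first principal component of the 4 libraries, which held 60.1% of their variance, placed H1-A at 68.9 and H2-B at 26.3, against H1-B at -45.2 and H2-A at -49.9. Every difference between the sides is therefore given as a description, without a test. All bulks came from the diploid hybrid population 12-3, an F1 progeny grown in pots under a tent, and held RNA of fully developed, untreated tubers pooled from several plants. H1 combined high starch with high expression of *AGPaseS-a*, a gene of ADP-glucose pyrophosphorylase (AGPase), and H2 combined high starch with low expression of that gene. The low-TSC bulks L1 (high *AGPaseS-a*) and L2 (low *AGPaseS-a*) were used only as a scale. The study calls A and B biological replicates, but the sources used here do not say whether both pooled RNA of the same plants, so differences between plants and between RNA extractions or libraries cannot be told apart. In pooled tissue, a lower count can mean fewer cells of a type or less RNA per cell, and these cannot be told apart either.

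The potato tuber is a swollen underground stem whose parenchyma stores starch in amyloplasts, non-green plastids that carry the same genome as chloroplasts. Starch is built by AGPase, starch synthases and branching enzymes and is broken down by amylases and phosphorylases after glucan, water dikinases have phosphorylated the granule. Patatins and proteinase inhibitors are the main storage proteins, and dehydrins, small heat shock proteins and metallothioneins are well known products of stressed plant tissue. The libraries were prepared from poly(A)-selected RNA, and plastid transcripts carry no long poly(A) tails.

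The counts on genes summed to 15293539 in H1-A and 24667778 in H2-B, against 20344661 in H1-B and 27545656 in H2-A, and to between 27543719 and 31943185 in the low-TSC libraries. At least 1 count was seen for 19392 genes in H1-A and 20213 in H2-B, against 22193 in H1-B and 23188 in H2-A. CPM here are counts scaled to library sizes adjusted with TMM, so that their sum over genes differs between libraries. Over all tested genes it was 1.21e+06 and 1.06e+06 CPM in H1-A and H2-B, against 949393 and 975955 CPM in H1-B and H2-A. Of the tuber markers, 20 patatin genes summed to 19013 and 19140 CPM in H1-A and H2-B, against 25497 and 23868 in H1-B and H2-A. The sides overlapped for 23 proteinase inhibitor genes, with 7845 and 5737 CPM in H1-A and H2-B, against 3934 and 6304 in H1-B and H2-A. They also overlapped for granule-bound starch synthase, given below. All 4 libraries thus carried the defining tuber transcripts at a high level. Of the leaf markers, 23 chlorophyll a-b binding protein genes summed to 195 and 283 CPM in H1-A and H2-B, against 161 and 64.6 CPM in H1-B and H2-A, and to between 73.4 and 273 CPM in the low-TSC libraries, while the gene for the small chain of ribulose bisphosphate carboxylase was at 0 CPM in H1-A and H2-B, against 0.70 and 0 CPM in H1-B and H2-A. Of the markers of the suberized periderm, 3 genes of omega-hydroxypalmitate O-feruloyl transferase summed to 1.67 and 0.988 CPM in H1-A and H2-B, against 3.17 and 2.59 CPM in H1-B and H2-A, and to between 1.5 and 3.18 CPM in the low-TSC libraries. The other periderm markers overlapped between the sides: 4 fatty acyl-CoA reductase genes summed to 17.7 and 12.8 CPM in H1-A and H2-B, against 12.3 and 13.4 CPM in H1-B and H2-A. For 3 genes of suberization-associated anionic peroxidase the sums were 37.6 and 26.2 CPM in H1-A and H2-B, against 23.2 and 41.8 CPM in H1-B and H2-A, and for 2 genes of glycerol-3-phosphate acyltransferase 5 they were 6.91 and 8.25 CPM in H1-A and H2-B, against 4.9 and 7.66 CPM in H1-B and H2-A. Core histones, the markers of dividing cells, summed over 46 genes to 1992 and 1802 CPM in H1-A and H2-B, against 918 and 927 CPM in H1-B and H2-A, and to between 950 and 1121 CPM in the low-TSC libraries. Cyclins, also markers of dividing cells, summed over 26 genes to 1377 and 1274 CPM in H1-A and H2-B, against 889 and 881 CPM in H1-B and H2-A, and to between 784 and 860 CPM in the low-TSC libraries. The part of cell composition in the differences below was not tested.

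Of 20389 genes tested, 504 (2.47%) were higher in H1-A and H2-B by at least 1 on the log2(CPM + 1) scale in both bulks, and 710 (3.48%) were lower by as much in both bulks. A further 64 genes were higher in H1-A and lower in H2-B, and 39 were lower in H1-A and higher in H2-B. As the sides were chosen on measured expression, that choice decides which of these counts are the larger. The difference within H1 had a standard deviation over genes of 0.85, and the difference within H2 one of 0.72. Across the 20389 genes, which are not independent replicates, the differences of the 2 bulks had a Pearson correlation of 0.48, and the choice of the sides fixes its sign. For A minus B in L1 and L2, the standard deviations were 0.47 and 0.45 and the correlation was -0.04, with 23 genes higher and 65 lower in both bulks. The H1 pair stood further apart, with 4623 genes past the threshold in that bulk alone, against 2849 in the H2 pair, 900 in L1 and 754 in L2. With counts scaled to library totals alone, the median difference of all genes moved by -0.17, and 269 genes were counted as higher and 1114 as lower.

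**Figure D1:**
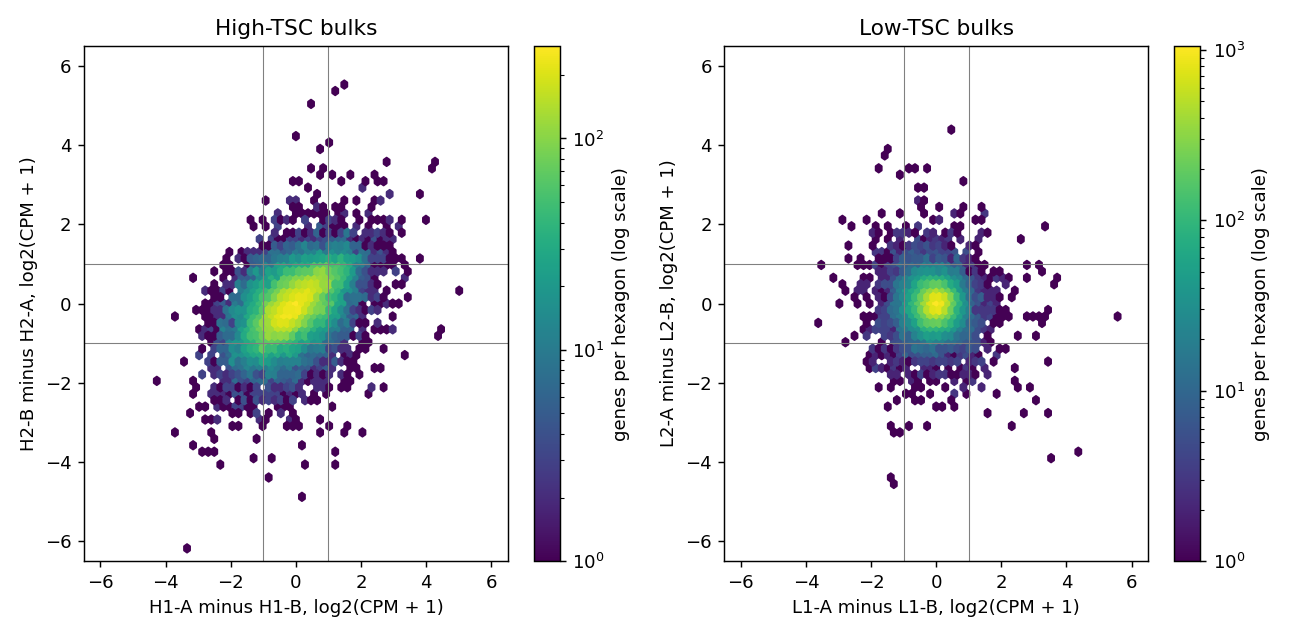
Difference between the replicate libraries of each bulk for 20389 genes, on the log2(CPM + 1) scale; left, H1-A minus H1-B (horizontal) and H2-B minus H2-A (vertical); right, A minus B in L1 and in L2. Colour gives the genes per hexagon and grey lines mark differences of 1 and -1. The cloud of the high-TSC bulks is wide and tilted (Pearson correlation 0.48), and that of the low-TSC bulks is narrow and round (-0.04).

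The low-TSC libraries mostly lay with H1-B and H2-A. In 458 of the 504 genes counted as higher, H1-A and H2-B were both above all other 6 libraries, while H1-B and H2-A were both below all others in 104. In 614 of the 710 genes counted as lower, H1-A and H2-B were both below the other 6 libraries, while H1-B and H2-A were both above all others in 172. On the first component of all 8 libraries, which held 44.1% of the variance, H1-A was at 87.3 and H2-B at 48.0, against -19.6 for H1-B, -25.7 for H2-A and -29.3 to -18.2 for the low-TSC libraries. The 4 low-TSC libraries, which the choice of the sides did not use, also allow a test. Between L1 and L2, edgeR's quasi-likelihood test called 0 of 20389 genes (0%) where the FDR had to be below 0.05 and the log2FC at least 1.5 in either direction. An unadjusted p under 0.05 was seen for 1113 genes (5.46%), and DESeq2 called 67 genes. At that unadjusted threshold stood 52 of the 504 genes counted as higher (10.3%) and 56 of the 710 counted as lower (7.89%).

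The genes highest in H1-A and H2-B included several known from stressed tissue. MLP-like protein 34 (LOC102584283), of the major latex protein family and one of the candidate genes of the study, had 469 and 265 CPM in H1-A and H2-B, against 64.6 and 39.4 CPM in H1-B and H2-A, and 22.9 to 50.8 CPM in the low-TSC libraries. Its log2 differences were 2.84 in H1 and 2.72 in H2, and the sides did not overlap. The dehydrin HIRD11-like gene (LOC102598409) had 741 and 258 CPM in H1-A and H2-B, against 120 and 71 CPM in H1-B and H2-A, and 91.3 to 122 CPM in the low-TSC libraries. Dehydrins are hydrophilic proteins that accumulate in drying or chilled plant cells. Abscisic stress-ripening protein 2 (LOC102583792), of a family induced by abscisic acid, had 963 and 498 CPM in H1-A and H2-B, against 226 and 139 CPM in H1-B and H2-A. A 17.6 kDa class I heat shock protein-like gene (LOC102578786) had 19.8 and 29.9 CPM in H1-A and H2-B, against 2.80 and 2.13 CPM in H1-B and H2-A. In this gene the low-TSC libraries spread over 2.63 to 29.7 CPM, nearly the whole range from H2-A to H2-B. The universal stress protein A-like gene (LOC102583766) had 46.0 and 53.9 CPM in H1-A and H2-B, against 11.7 and 12.2 CPM in H1-B and H2-A, and 9.78 to 45.5 CPM in the low-TSC libraries, the highest of which lay just below H1-A.

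Other genes at the top of this direction belonged to varied functions. The dCTP pyrophosphatase 1-like gene (LOC102581660), whose product family clears non-canonical nucleotides, had 252 and 238 CPM in H1-A and H2-B, against 45.0 and 26.7 CPM in H1-B and H2-A. The hydroxyproline-rich glycopeptide precursor (LOC102577578), source of wound-signalling peptides in Solanaceae, had 84.1 and 90.5 CPM in H1-A and H2-B, against 20.7 and 11.3 CPM in H1-B and H2-A. The ABC transporter F family member 4-like gene (LOC102591276) had 1136 and 523 CPM in H1-A and H2-B, against 163 and 122 CPM in H1-B and H2-A. Root ferredoxin R-B2-like (LOC102599873), an electron carrier of non-green plastids, was low in H1-B and H2-A alone: it had 14.9 and 32.7 CPM in H1-A and H2-B, against 1.45 and 1.74 CPM in H1-B and H2-A, and 13 to 20.3 CPM in the low-TSC libraries. The remaining 3 of the 12 genes of this direction with the largest differences, besides the LE25-like gene (LOC102605148), were annotated as TFIID subunit 3-like (LOC102602389), coiled-coil domain-containing protein 97 (LOC102599874) and gelsolin-related protein (LOC102599602). An uncharacterized gene (LOC102589499) had the largest shared difference of those with no product name, with 143 and 58.1 CPM in H1-A and H2-B, against 6.35 and 4.29 CPM in H1-B and H2-A.

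Of the 12 annotated genes lowest in H1-A and H2-B, 7 had models that span more than 8231 bp. That is where the longest of 5 equal groups by span begins, which holds 4072 of the 20360 genes with a known span. Probable aldehyde oxidase 4 (LOC107057837) had 6.75 and 1.07 CPM in H1-A and H2-B, against 80.0 and 144 CPM in H1-B and H2-A, and 37.8 to 81.3 CPM in the low-TSC libraries. Its log2 differences were -3.39 in H1 and -6.13 in H2, the lowest shared value among annotated genes of at least 10 CPM. The chloroplastic fructose-bisphosphate aldolase 1-like gene (LOC102606020), of the Calvin cycle and glycolysis, had 4.84 and 7.73 CPM in H1-A and H2-B, against 41.7 and 112 CPM in H1-B and H2-A. The RNA helicase SKI2 (LOC102593100), part of the complex that feeds RNA to the cytoplasmic exosome, had 3.02 and 0.430 CPM in H1-A and H2-B, against 23.2 and 18.6 CPM in H1-B and H2-A, and 17.2 to 22.4 CPM in the low-TSC libraries. BEACH domain-containing protein B (LOC102600723), whose model spans 40098 bp, had 9.53 and 10.8 CPM in H1-A and H2-B, against 61.0 and 59.2 CPM in H1-B and H2-A. In SKI2 and BEACH domain-containing protein B, the 6 libraries other than H1-A and H2-B lay close together.

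Formin-like protein 13 (LOC102594339), an actin nucleator, had 3.41 and 1.76 CPM in H1-A and H2-B, against 24.0 and 26.5 CPM in H1-B and H2-A. Pre-mRNA-splicing factor prp12 (LOC102600929) had 8.89 and 9.02 CPM in H1-A and H2-B, against 54.4 and 50.9 CPM in H1-B and H2-A. The chloroplast helicase ISE2 (LOC102584107), which acts on plastid RNA, had 4.84 and 4.04 CPM in H1-A and H2-B, against 23.3 and 19.6 CPM in H1-B and H2-A. The models of formin-like protein 13, prp12 and ISE2 span 14598, 13455 and 12564 bp. Both prp12 and ISE2, like SKI2, are in the list of splicing factors and helicases. Of the 220 genes of that list, 14 were counted as lower (6.36%, beside 3.48% of all genes) and 6 as higher (2.73%, beside 2.47%). The kirola-like gene (LOC102591410), of the same major latex protein family as MLP-like protein 34 and only 1158 bp long, went the other way from it, with 4.29 and 1.42 CPM in H1-A and H2-B, against 24.7 and 10.4 CPM in H1-B and H2-A. Its low-TSC libraries had 0.690 to 5.24 CPM and so lay with H1-A and H2-B.

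**Figure D2:**
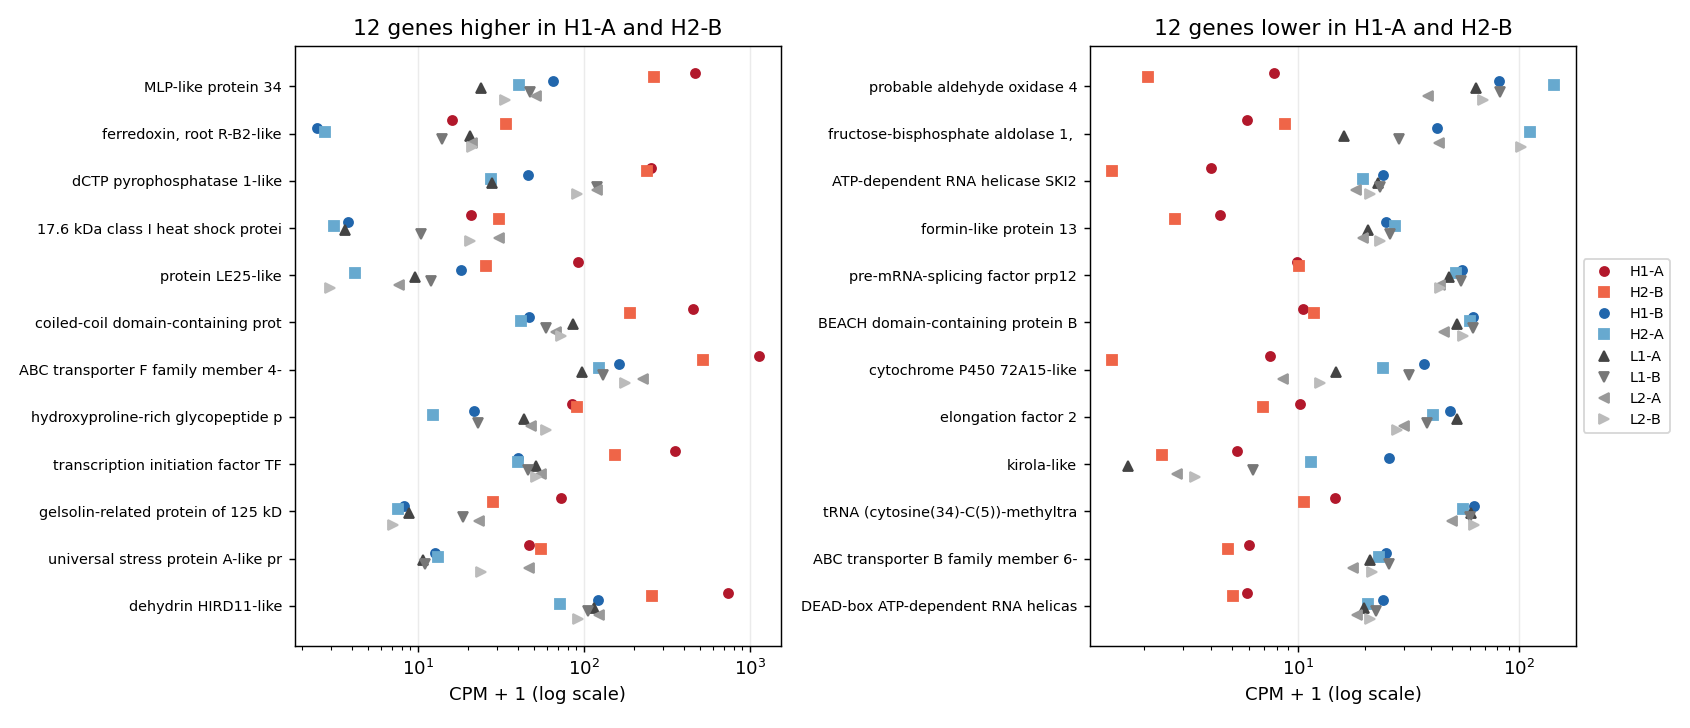
Level of the 12 annotated genes with the largest shared difference in each direction, as CPM + 1 on a log axis, with 1 point per library. H1-A and H2-B are red and orange, H1-B and H2-A blue, and the low-TSC libraries grey; most grey points lie with the blue ones, as for SKI2 (17.2 to 22.4 CPM), while those of the 17.6 kDa heat shock gene spread over 2.63 to 29.7 CPM.

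Among the tested genes, 4 pairs of gene models on 1 strand touch end to end, and in 2 of these pairs both models are annotated to 1 protein family, elongation factor 2 or aldehyde oxidase. The pairs of 1 family were chosen after their values were seen. The remaining pairs had at most 6.08 CPM in any library and did not share a pattern. For LOC102581916 and LOC102582240 the differences were 0.48 and 0.15 upstream and -0.77 and -0.62 downstream. For LOC102595074 and LOC102594739 they were -0.65 and -0.55 upstream and -1.19 and 0.82 downstream. The models annotated as elongation factor 2 (LOC102596007, SolTub_3.0 scaffold NW_006239059.1, 204945 to 208872, plus strand) and elongation factor 2-like (LOC102595666, 208872 to 211533) share a base. Elongation factor 2 moves the ribosome along the mRNA. The upstream model had 9.13 and 5.93 CPM in H1-A and H2-B, against 47.8 and 39.8 CPM in H1-B and H2-A. The downstream model had 443 and 293 CPM in H1-A and H2-B, against 107 and 103 CPM in H1-B and H2-A. The 2 models thus differed in opposite directions, by -2.27 and -2.56 upstream and by 2.04 and 1.51 downstream. The aldehyde oxidase pair begins with probable aldehyde oxidase 4 (LOC107057837, scaffold NW_006238943.1, 2129404 to 2133511, plus strand). Its downstream model is indole-3-acetaldehyde oxidase-like (LOC102598892, 2133511 to 2139454). This downstream model had 252 and 259 CPM in H1-A and H2-B, against 791 and 1619 CPM in H1-B and H2-A. Its differences of -1.65 and -2.64 were smaller than those of the upstream model, -3.39 and -6.13. Coverage along single transcripts was not tested, since the counts are 1 value per gene.

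Aldehyde oxidases make the last steps of abscisic acid synthesis and can oxidize indole-3-acetaldehyde. All 6 tested members were lower in H1-A and H2-B in both bulks, as were 7689 of the 20389 tested genes. Of the 6 members, 4 passed the threshold in both bulks, beside 3.48% of all genes. The medians of the family were -1.43 in H1 and -2.27 in H2, beside -0.07 and -0.05 over all genes. The family was chosen after its values were seen, and 5 of its members lie on scaffold NW_006238943.1 between 2088461 and 2162728. The abscisic-aldehyde oxidase-like gene LOC102599541 had 9.45 and 7.48 CPM in H1-A and H2-B, against 31.1 and 46.9 CPM in H1-B and H2-A. Reads of such neighbouring copies, and of ribosomal protein, histone, metallothionein and resistance gene families, may have been assigned to more than 1 member or lost, and single members are uncertain for that reason.

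Genes for the machinery of protein synthesis and respiration were higher in H1-A and H2-B as groups. The 223 tested genes of cytosolic ribosomal proteins had medians of 0.89 in H1 and 0.55 in H2, and 196 had a positive difference in both bulks. Of the 223 genes, 19 were counted as higher (8.52%, beside 2.47% of all genes) and 0 as lower (beside 3.48% of all genes). The summed level of the ribosomal protein genes was 103055 and 83197 CPM in H1-A and H2-B, against 54145 and 55480 CPM in H1-B and H2-A. It was 47743 to 58229 CPM in the low-TSC libraries. For 60S ribosomal protein L14-1 (LOC102584420) the values were 262 and 197 CPM in H1-A and H2-B, against 87.9 and 66.2 CPM in H1-B and H2-A. The 86 genes of mitochondrial respiration had medians of 0.68 and 0.33, with 4 counted as higher (4.65%) and 0 as lower. The 96 genes of plastid and mitochondrial ribosomal proteins had medians of 0.55 and 0.41. Of them, 3 were counted as higher (3.12%, beside 2.47% of all genes) and 0 as lower. The 50 histone genes, which package DNA, had medians of 0.80 in H1 and 0.56 in H2, with 7 counted as higher (14%) and 0 as lower. The histone H2B.3-like gene (LOC102602475) had 242 and 216 CPM in H1-A and H2-B, against 93.5 and 76.4 CPM in H1-B and H2-A. Over 165 cell cycle and replication genes, with a median span of 6056 bp, 1 was counted as higher and 8 as lower (4.85%, beside 3.48% of all genes), although the summed level of the cyclins was higher in H1-A and H2-B. The medians of this list were -0.20 and -0.36, and that of the mean difference, -0.26, was -0.12 within groups of genes of equal length. Over all genes, the medians of the mean difference were -0.06 and, within these groups, 0.

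The stress lists did not share a direction. Over 724 genes of these lists together, 18 were counted as higher (2.49%) and 27 as lower (3.73%), beside 2.47% and 3.48% of all genes. All 6 metallothioneins, small metal-binding proteins, had a positive difference in both bulks and 1 was counted as higher, with medians of 1.15 in H1 and 1.37 in H2. The most abundant, metallothionein-like protein type 2 B (LOC102605015), had 5731 and 4433 CPM in H1-A and H2-B, against 1929 and 1486 CPM in H1-B and H2-A, and 1824 to 2767 CPM in the low-TSC libraries. Among the heat shock proteins, which keep other proteins from aggregating or fold them, 27 small heat shock genes had medians of 0.75 and 1.07 with 7 counted as higher and 0 as lower. A 17.3 kDa class II gene (LOC102602952) had 264 and 280 CPM in H1-A and H2-B, against 89.0 and 76.9 CPM in H1-B and H2-A. The 21 genes of the 70 kDa heat shock family had medians of -0.37 and -0.13 with 1 counted as higher and 0 as lower. This division of the family was made after its values were seen. Over 11 genes whose product names matched late embryogenesis and desiccation proteins, the medians were -0.14 and 0.13. Of these, only the dehydrin HIRD11-like gene was counted. The LE25-like gene (LOC102605148) was outside this list of matched names and was also counted as higher. It had 91.0 and 24.7 CPM in H1-A and H2-B, against 17.1 and 3.19 CPM in H1-B and H2-A.

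The share counted as lower varied among the lists of resistance genes, receptor-like kinases, WRKY factors and pentatricopeptide repeat proteins, beside 3.48% of all genes. Of 107 homologs of late blight resistance proteins, receptors of the type that detects *Phytophthora*, 14 were counted as lower (13.1%) and 1 as higher, with medians of -0.59 in H1 and -0.55 in H2. Their summed level was 377 and 368 CPM in H1-A and H2-B, against 585 and 589 CPM in H1-B and H2-A, and 522 to 628 CPM in the low-TSC libraries. Of 180 other NB-LRR genes, 25 were counted as lower (13.9%) and 0 as higher, with medians of -0.48 and -0.51. The TMV resistance protein N-like gene (LOC102591050) had 1.03 and 0.687 CPM in H1-A and H2-B, against 11.4 and 11.1 CPM in H1-B and H2-A. The 428 receptor-like kinases, surface receptors, had 22 counted as lower (5.14%) and 3 as higher. WRKY factors, regulators of defence genes, had 2 of 53 counted as lower (3.77%), near the share of all genes, and 0 as higher. The 449 pentatricopeptide repeat proteins, which process organelle RNA, had 32 counted as lower (7.13%) and 2 as higher, with medians of -0.44 and -0.34.

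Of the cell wall lists, the synthesis of cellulose and hemicellulose differed most. It had 9 of 103 genes counted as lower and 1 as higher, with medians of -0.46 in H1 and -0.34 in H2. The cellulose synthase-like protein D3 gene (LOC102588915) had 1.03 and 1.03 CPM in H1-A and H2-B, against 12.9 and 10.6 CPM in H1-B and H2-A, and 6.64 to 8.90 CPM in the low-TSC libraries. Glucomannan 4-beta-mannosyltransferase 2 (LOC102590208), which builds mannan, had 5.24 and 9.93 CPM in H1-A and H2-B, against 45.0 and 37.8 CPM in H1-B and H2-A. Of 76 structural wall proteins, 4 were counted as lower and 1 as higher, and an extensin-2-like gene (LOC102596521) had 66.2 and 87.7 CPM in H1-A and H2-B, against 302 and 326 CPM in H1-B and H2-A. Pectin-modifying enzymes had 1 of 59 genes counted as lower and 0 as higher. Suberin, cutin and wax genes had 1 of 81 counted as higher and 0 as lower, and their medians of 0.05 and -0.07 were close to those of all genes. Together the cell wall lists had 6 of 452 genes counted as higher (1.33%) and 19 as lower (4.20%), beside 2.47% and 3.48% of all genes.

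Most starch genes had a negative difference in both bulks, and few passed the threshold. Of 17 genes of starch synthesis, 12 had a negative and 1 a positive difference in both bulks, with medians of -0.36 in H1 and -0.74 in H2 and 1 counted as lower (5.88%, beside 3.48% of all genes). That gene, 1,4-alpha-glucan-branching enzyme-like (LOC102596498), had 591 and 508 CPM in H1-A and H2-B, against 1524 and 1658 CPM in H1-B and H2-A, and 925 to 1499 CPM in the low-TSC libraries. Of 23 genes of starch breakdown, 3 of them isoamylases that the synthesis list also holds, 16 had a negative and 3 a positive difference in both bulks, and 2 were counted as lower (8.70%). Their summed level was 13414 and 10965 CPM in H1-A and H2-B, against 9498 and 13803 CPM in H1-B and H2-A, so that the sides overlapped, as they did for the granule-bound starch synthase gene with 1881 and 2684 CPM in H1-A and H2-B, against 2541 and 3939 CPM in H1-B and H2-A. Alpha-amylase 3 (LOC102599630), a plastid enzyme, had 11.2 and 11.9 CPM in H1-A and H2-B, against 48.8 and 45.1 CPM in H1-B and H2-A. The starch-granule-bound R1 protein (R1), a glucan, water dikinase that was outside the list and chosen after its values were seen, had 201 and 147 CPM in H1-A and H2-B, against 739 and 452 CPM in H1-B and H2-A. The starch synthesis list has a median span of 12300 bp, and its median of the mean difference, -0.50, was -0.32 within groups of genes of equal length. Over all genes, the medians of the mean difference were -0.06 and, within such groups, 0. Of 20 patatins, 2 were counted as lower and 0 as higher, and patatin-05-like (LOC102605260) had 2094 and 2343 CPM in H1-A and H2-B, against 4319 and 5575 CPM in H1-B and H2-A.

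**Figure D3:**
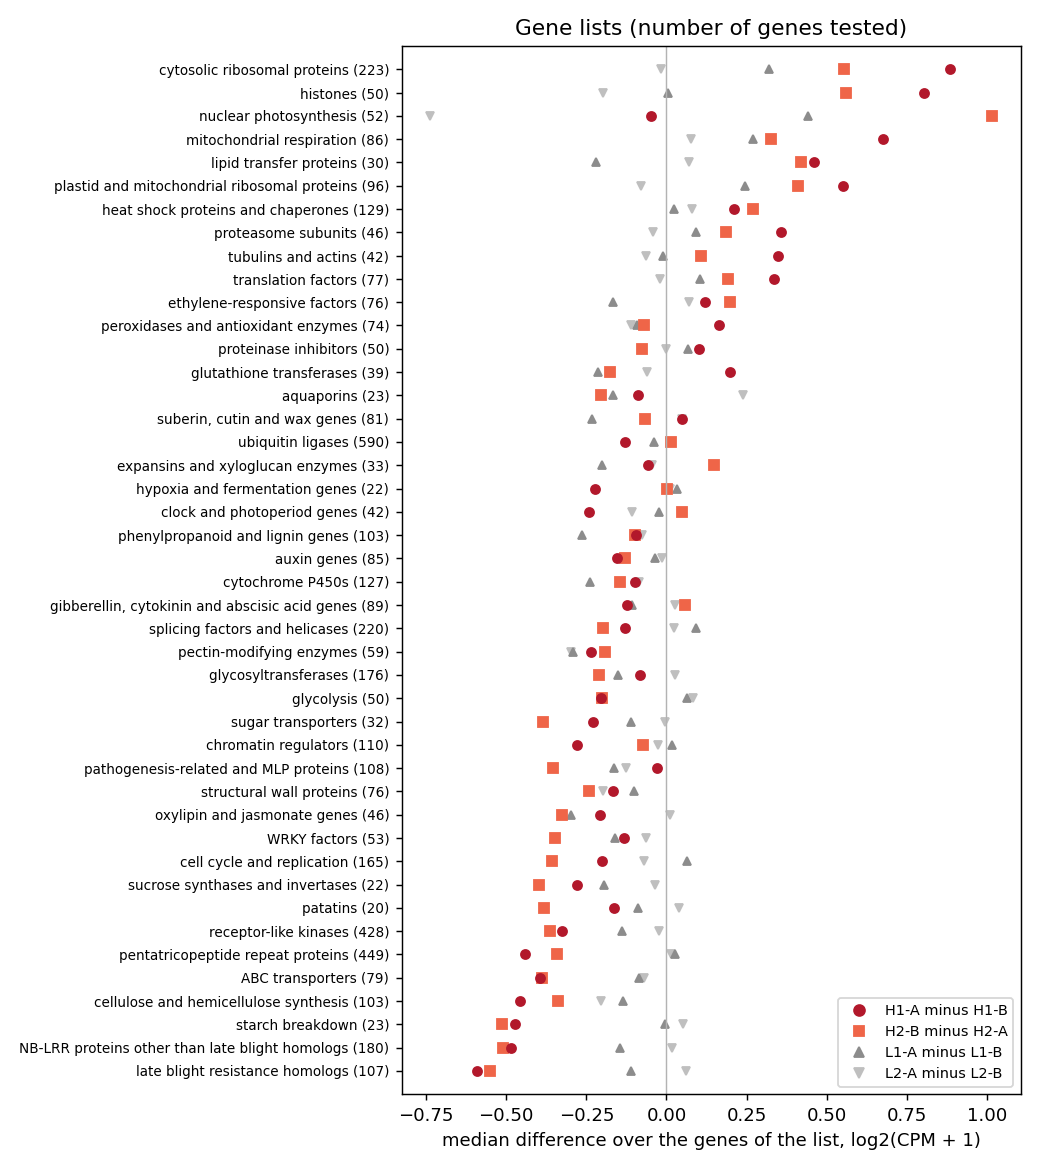
Median difference between replicate libraries for each gene list with at least 20 tested genes, on the log2(CPM + 1) scale, ordered by the mean of the high-TSC bulks. Red circles and orange squares are H1 and H2, grey triangles are A minus B in L1 and L2; ribosomal proteins lie at 0.89 and 0.55, late blight resistance homologs at -0.59 and -0.55, and nuclear photosynthesis genes at -0.05 in H1 and 1.02 in H2.

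The plastid genes that were counted differed strongly between the sides, and few of them carried the difference. The count table lists 41 of the 141 plastid genes in the RefSeq annotation, and 11 of the 84 that code for protein. Plastid genes outside the count table could not be seen, so shares of plastid counts cover only those listed. The values below hold for these 41 genes, of which 23 had at least 1 count and 10 passed the filter on low counts. Their counts made up 0.0343% of all counts in H1-A and 0.0241% in H2-B, against 0.00469% in H1-B and 0.00418% in H2-A, and 0.00412% to 0.00765% in the low-TSC libraries. The summed level was 417 and 256 CPM in H1-A and H2-B, against 44.6 and 40.8 CPM in H1-B and H2-A, a log2 difference of 3.22 in H1 and 2.65 in H2. Of these counts, 86.4% over all libraries were on *ycf3*, *atpF* and *clpP*. For *ycf3*, an assembly factor of photosystem I, there were 3085 and 3524 counts in H1-A and H2-B, against 260 and 371 counts in H1-B and H2-A. For *atpF*, a subunit of ATP synthase, there were 991 and 725 counts in H1-A and H2-B, against 98 and 112 counts in H1-B and H2-A. For *clpP*, the plastid protease subunit, there were 883 and 1408 counts in H1-A and H2-B, against 302 and 351 counts in H1-B and H2-A. In all 3 genes the low-TSC libraries lay below H1-A and H2-B.

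Plastid genes did not all go this way. For *ndhA*, a subunit of the plastid NADH dehydrogenase-like complex, there were 7 and 9 counts in H1-A and H2-B, against 147 and 168 counts in H1-B and H2-A, and 109 to 171 counts in the low-TSC libraries, so that the sides did not overlap and the direction was the opposite of that of *ycf3*. For *rps16*, a ribosomal protein, there were 0 and 0 counts in H1-A and H2-B, against 9 and 7 counts in H1-B and H2-A. For *rpl16*, also a ribosomal protein, there were 16 and 64 counts in H1-A and H2-B, against 86 and 70 counts in H1-B and H2-A, and its differences of -1.14 in H1 and 0.11 in H2 had opposite signs. In all, 5 of the 10 genes were counted as higher in both bulks and 1 as lower. Of 52 nuclear genes of photosynthesis, 3 were counted as higher (5.77%, beside 2.47% of all genes) and 0 as lower, and 23 had a positive and 2 a negative difference in both bulks. Their summed level was 796 and 869 CPM in H1-A and H2-B, against 546 and 425 CPM in H1-B and H2-A, and 444 to 852 CPM in the low-TSC libraries, which spread across the gap between the sides. The photosystem marker, summed over 20 genes, was at 515 and 517 CPM in H1-A and H2-B, against 342 and 330 CPM in H1-B and H2-A, and 327 to 515 CPM in the low-TSC libraries. The medians of the 52 nuclear genes of photosynthesis were -0.05 in H1 and 1.02 in H2. Their medians of A minus B were 0.44 in L1 and -0.74 in L2, where A is on opposite sides in H1 and H2.

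**Figure D4:**
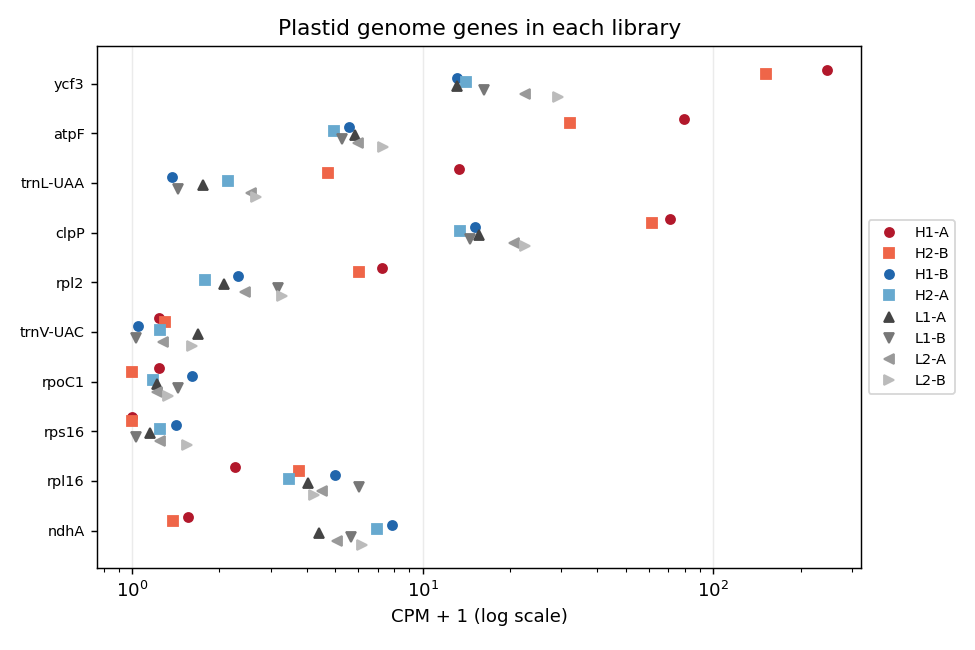
Level of the 10 tested plastid genome genes as CPM + 1 on a log axis, with 1 point per library; H1-A and H2-B are red and orange, H1-B and H2-A blue and the low-TSC libraries grey. *ycf3*, *atpF*, *clpP*, *trnL-UAA* and *rpl2* are higher in H1-A and H2-B than in all other libraries, and *ndhA* is lower.

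Over all genes, the differences of both bulks went down with gene length. In 5 groups of equal size by genomic span, the median difference within H1 was 0.18 in the shortest genes (35 to 2129 bp) and -0.34 in the longest (8231 to 123914 bp), and within H2 it was 0.16 and -0.27. Each step between these groups went down in both bulks. In L1 and L2 the medians of A minus B stayed between -0.06 and 0.02 in all 5 groups. Over 20360 genes with a known span, Spearman's correlation with length was -0.23 in H1 and -0.22 in H2, beside 0.03 in L1 and -0.01 in L2. Of the shortest genes 5.55% were counted as higher and 2.31% as lower, and of the longest 1.13% as higher and 6.48% as lower. The median span was 2390 bp for genes counted as higher and 6077 bp for those counted as lower, beside 4365 bp over all genes. Level ran the same way as shortness: the differences had correlations of 0.17 and 0.14 with the mean CPM of a gene in H1 and H2, and 0.18 and 0.07 for A minus B in L1 and L2.

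**Figure D5:**
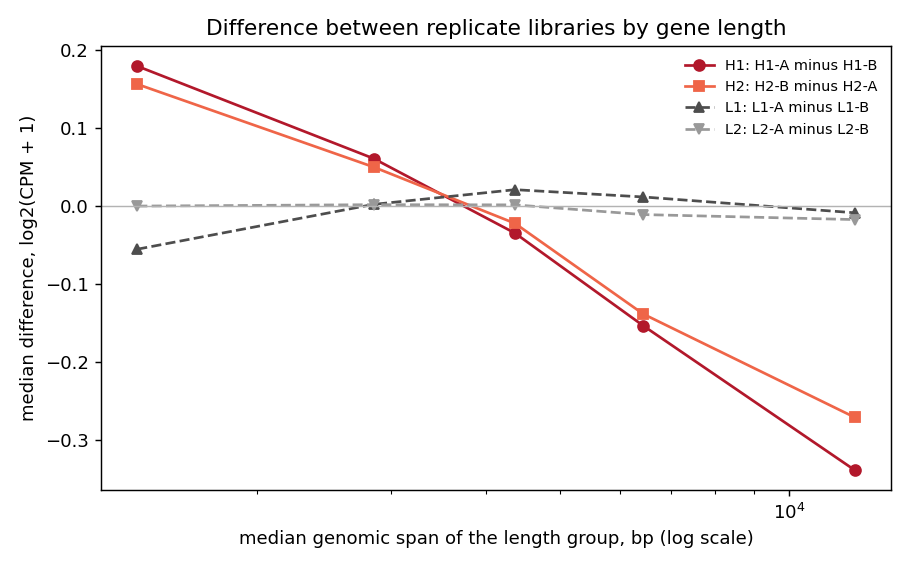
Median difference between replicate libraries in 5 groups of genes by genomic span, against the median span of the group in bp (log axis). Red circles (H1) and orange squares (H2) go down with length to -0.34 and -0.27, while the grey lines of A minus B in L1 and L2 stay between -0.06 and 0.02.

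Between 10 length groups lay 6.24% of the variance of the mean difference. Within these groups, an alternative added after the data were seen, the median was 0.63 for cytosolic ribosomal proteins in place of 0.70, 0.49 for histones in place of 0.68, -0.53 for late blight resistance homologs in place of -0.59 and -0.35 for pentatricopeptide repeat proteins in place of -0.37. These values are taken from the median of each length group, so that all genes had 0 in place of -0.06. Other lists came nearer to the value of all genes. For splicing factors and helicases the median was 0.00 in place of -0.16, and for chromatin regulators -0.04 in place of -0.23. For glycolysis it was -0.05 in place of -0.20, for pectin-modifying enzymes -0.07 in place of -0.18, and for ethylene-responsive factors 0.09 in place of 0.19. No function held much of the total. Of the squared mean difference summed over genes, the stress lists held 4.20% with 3.55% of the genes, the cell wall lists 2.26% with 2.22%, the storage and carbon lists 0.721% with 0.687% and cytosolic ribosomal proteins 1.72% with 1.09%. The plastid genome held 0.467% with 0.049% of the genes, and uncharacterized genes held 24.0% with 22.1%. Noncoding RNAs, with 60 of 1051 counted as higher (5.71%), stood above the share of all genes (2.47%). Of them, 37 were counted as lower (3.52%, beside 3.48% of all genes). Their median span was 2865 bp, beside 4365 bp over all genes, and they were not compared within length groups.

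Of 15 candidate genes of the study, 2 were counted as higher in both bulks, MLP-like protein 34 and a proteinase inhibitor, and 1 as lower, a cruciferin. Of all tested genes, 2.47% were counted as higher and 3.48% as lower. The proteinase inhibitor type-2-like gene (LOC102590434) had 292 and 113 CPM in H1-A and H2-B, against 65.2 and 45.7 CPM in H1-B and H2-A, and 4.70 to 35.1 CPM in the low-TSC libraries, so that both sides were above the low-TSC bulks. The cruciferin PGCRURSE5-like gene (LOC102601158), a seed storage globulin, had 9.05 and 12.4 CPM in H1-A and H2-B, against 24.6 and 55.6 CPM in H1-B and H2-A. Its level was 96.2 and 130 CPM in L1 and 9.58 and 9.79 CPM in L2, so that H2-B lay near the L2 libraries and H2-A between those of L2 and L1. For anthocyanidin reductase-like (LOC102580754) the differences had opposite signs, with 0.387 CPM in H2-B against 10.9 CPM in H2-A, and 1.59 CPM in H1-A against 0.28 CPM in H1-B. Unequal or opposite differences were also seen for the WAT1-related gene (LOC107057670), with -0.58 in H1 and -2.65 in H2, for the late blight resistance homolog R1B-23 (LOC102593485), with -0.15 and -3.01, and for a probable glutathione S-transferase (LOC102579204), with 0.77 and -2.03. The gene for 9-divinyl ether synthase (LOC102588225), an oxylipin enzyme, had 162 and 198 CPM in H1-A and H2-B, against 140 and 274 CPM in H1-B and H2-A, and its sides overlapped. Of the AGPase genes, the large subunit *AGPS1* had 2260 and 1307 CPM in H1-A and H2-B, against 2217 and 2843 CPM in H1-B and H2-A, a difference of 0.03 in H1 and -1.12 in H2.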

How the data were processed

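RNA-seq was done on 8 libraries, 2 per bulk. The authors deposited raw counts per gene, made from trimmed paired-end reads aligned with TopHat2 2.0.9 and Bowtie2 2.1.0 to SolTub_3.0 and counted with HTSeq. Their comparison tables hold fold changes (a ratio, also as log2), p-values and a standard error (a score) as deposited by the authors, and none of these was used. The table also holds 2 columns matching no sample, which were not used.

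Counts were filtered with filterByExpr of edgeR 4.0.16 in R 4.3.3 (20389 of 32768 genes), scaled with TMM and expressed as log2(CPM + 1). The difference was H1-A minus H1-B and H2-B minus H2-A. L1 minus L2 was fitted with edgeR's quasi-likelihood method on the 4 low-TSC libraries, with Benjamini-Hochberg adjustment, and as an alternative with DESeq2 1.42.0. That test was checked on simulated counts. The study calls the replicates biological, but the sources do not say whether they are separate plants, so its p-values measure only the spread between these libraries. Length is the genomic span of a gene in the RefSeq table. Gene lists were made by matching words of product names.

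The libraries, lists and named genes were chosen with earlier results of these data known. Named genes are the 12 per direction with the largest smaller absolute difference of the 2 bulks (at least 10 CPM, product known), up to 3 per list (at least 5 CPM), plastid genes, 3 uncharacterized genes per direction, candidate genes of the study and AGPase genes. Alternatives were other scalings, filters, pseudocounts and thresholds, thinned libraries and libraries left out.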

Additional observations from a re-analysis of the deposited data

Results flagged for a closer look

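Among 108 groups of 4 libraries examined by Dixon's ratio, 2 had a library far from the rest, where chance flags about 1 in 20. The summed level of splicing factors and helicases was 24856 CPM in H1-A and 20531 CPM in H2-B, against 21203 CPM in H1-B and 21145 CPM in H2-A, so that H1-A stood above the other 3 with a ratio of 0.845. The sum over all tested genes was also highest in H1-A, at 1.21e+06 CPM, against 949393 to 1.06e+06 CPM in the other high-TSC libraries. The median difference of this list was -0.16. The summed level of NB-LRR proteins other than late blight homologs was 1050 CPM in L1-B, above 907 to 922 CPM in the other low-TSC libraries, with a ratio of 0.893. The median difference of 3 polyphenol oxidases, enzymes of tuber browning, was 1.03 in H1 and -0.50 in H2, which differ by 1.53. That difference between the bulks was not tested.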

How the results depend on the processing

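With counts scaled to library totals, 269 genes were counted as higher and 1114 as lower in H1-A and H2-B. A pseudocount of 0.25 CPM gave 1453 lower genes, one of 4 CPM gave 268 higher and 252 lower, and a threshold of 1.5 gave 86 higher and 145 lower. With 1 library left out, the other bulk's pair alone gave 1092 to 2164 higher and 1757 to 2459 lower genes. Spearman's correlation of the mean difference with length, -0.25, was -0.29 with library totals, -0.23 without a filter, -0.32 for genes of at least 50 counts on average, -0.21 and -0.28 with pseudocounts of 0.25 and 4 CPM, -0.27 in thinned libraries and -0.23 to -0.22 with 1 library left out. The difference of the plastid sum, 2.94, was 2.65 to 3.22 with 1 library left out. Between L1 and L2, 2 genes were called without a filter and 67 by DESeq2, and 0 with the replicate block, which left 1141 genes at an unadjusted p under 0.05, and 0 with each library left out. The causes were not tested. Of 922 values of 116 named genes counted in both bulks, 0 changed sign under settings other than a left-out library; with a library left out, that choice of genes fixes the sign. Of 216 list medians with 1 library left out, 24 took the other sign, in 12 lists. Of 54 list medians, 12 took the other sign or 0 under some setting other than a left-out library, among them proteinase inhibitors (-0.16 with library totals), late embryogenesis proteins (0.03 without a filter) and the plastid genome (0 without a filter, which adds its unexpressed genes). Exonic length was not run, as no exon annotation was used here. With 2 libraries per bulk the spread within a side is unknown, and genes below 1 CPM rest on few counts.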
